A study of Papio hamadryas with 160 samples.

Results

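Small RNA libraries of the motor cortex (MC) were compared with libraries of association cortex from the same baboons. Association cortex was taken as the mean of log2(RPM + 1) over the dorsolateral prefrontal cortex (dlPFC) and the posterior parietal cortex (PPC) of an animal, where RPM is the read count scaled to the mapped miRNA reads of a library. The comparison held 5 MC libraries, with 5 dlPFC and 5 PPC libraries of the same animals (B1, B2, B3, B5 and B6), out of 76 libraries in the series, and covered all 362 miRNAs of the table. The MC of B4, which the authors set aside for too few mapped reads, was not analysed here, so B4 enters only where its other regions are described.

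The series holds peripheral blood mononuclear cells (PBMC) and 14 brain regions from 10 captive baboons (Papio hamadryas). Group A gave 31 libraries from 4 animals, and Group B gave 45 libraries from 6 animals, 39 of them from 7 brain regions. The 3 areas compared were sampled only in Group B. The labels give these animals no treatment. They had been enrolled as controls in a pregnancy study, were mostly male and of differing ages, and were exsanguinated under general anesthesia. MC was cut from the strip just in front of the central sulcus, dlPFC from the dorsal bank of the principal sulcus, and PPC from the dorsal bank of the parietal sulcus, all from fresh tissue that was then flash frozen. All 3 areas came from the same brains, so age, sex and the manner of death were shared within each pair.

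A miRNA is a short RNA that guides Argonaute proteins to messenger RNAs with matching sites and lowers their translation or stability. Motor cortex holds the large layer 5 neurons whose axons run to the brainstem and spinal cord, is thick and poor in granule cells, and is more heavily myelinated than the prefrontal and parietal association areas, which join information from many other cortical fields. The tissue was bulk cortex, so fewer cells of a type and less of a miRNA per cell cannot be told apart in any value below.

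The 15 libraries had totals, recovered from the RPM values, of 1425622 to 2868113 reads. At these totals, 3 reads, the most that a count of 0 allows, stood for 1.05 to 2.1 RPM. The MC library was shallower than the mean of the other areas in 4 of 5 animals. Within an animal, Spearman's r_s over the 362 miRNAs was 0.983 to 0.993 between MC and dlPFC, 0.987 to 0.993 between MC and PPC, and 0.977 to 0.992 between dlPFC and PPC. The ranges of these coefficients over 5 animals overlapped. The median absolute log2 difference over the 362 miRNAs was 0.167 to 0.313 between MC and dlPFC (median of animals 0.286), 0.180 to 0.257 between MC and PPC (median 0.194) and 0.190 to 0.333 between dlPFC and PPC (median 0.237), ranges that also overlapped. The difference between MC and association cortex lay within 0.5 on the log2 scale for 354 of 362 miRNAs, and its median was −0.01.

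Of the 362 miRNAs, 4 were higher in MC at an adjusted p under 0.05 (limma, blocked by animal, with p-values adjusted over all miRNAs), which is 1.10% of those tested, and 0 (0%) were lower. These were hsa-miR-34a-5p, hsa-miR-1-3p, hsa-miR-133a-3p and hsa-miR-10b-5p. At an unadjusted p under 0.05, 23 miRNAs were higher (6.35%) and 20 lower (5.52%). MC exceeded the animal's association value in 5 of 5 animals for 24 miRNAs (6.63%) and fell short of it in 5 of 5 for 17 (4.70%). The same 4 miRNAs were also the only ones at least 1.5-fold higher in MC, while 2 were at least 1.5-fold lower, at under 15 RPM in each area on average and without a call in this fit.

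**Figure D1:**
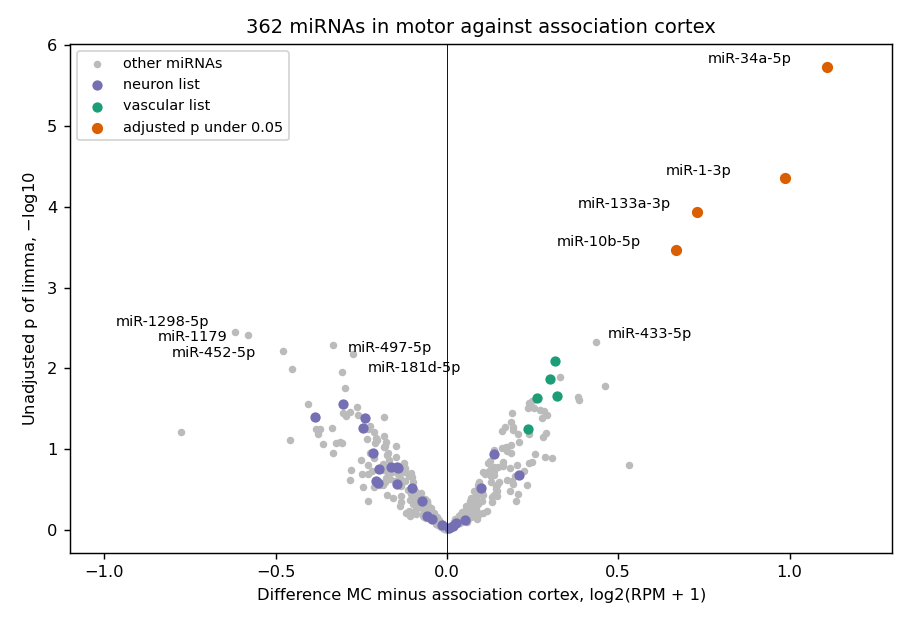
Each point is 1 of 362 miRNAs; the horizontal axis is the difference MC minus association cortex in log2(RPM + 1), averaged over 5 animals, and the vertical axis is the unadjusted limma p as −log10. The 4 orange points at 0.67 to 1.11 stand apart to the upper right; the vascular list (green) lies at 0.24 to 0.32 and most of the neuron list (violet) lies left of 0.

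hsa-miR-34a-5p, a target of the transcription factor p53 that is also active in maturing neurons, showed the largest difference. Its level in MC was 394 RPM in B1, 247 in B2, 379 in B3, 289 in B5 and 327 in B6. In dlPFC the level was 144, 48.3, 136, 92.2 and 184 RPM in the same animals, and in PPC it was 173, 296, 197, 233 and 141 RPM. Every MC library lay above every dlPFC library, whereas B2 had more in PPC than in MC. The counts behind these levels ran from 122 to 767 reads, and the 95% Wilson intervals in B2 were 229 to 266 RPM for MC and 273 to 321 RPM for PPC, which do not overlap.

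On the log2(RPM + 1) scale the difference of hsa-miR-34a-5p from association cortex was 1.11 (SE 0.08), or 2.16-fold, with an adjusted p of 0.00067 in limma. It was 0.97 to 1.32 in the 5 animals. That narrow range came with a wide one between the association areas themselves, where dlPFC minus PPC went from −2.59 in B2 to 0.38 in B6. When libraries rather than animal means were the values, with B4 included (17 libraries), the adjusted p was 0.12, and it was 0.055 in edgeR on the recovered reads. With any single animal left out it was 0.00279 to 0.00747.

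hsa-miR-1-3p and hsa-miR-133a-3p, which are made from shared primary transcripts and are best known for muscle differentiation, were the next. hsa-miR-1-3p stood at 357, 276, 267, 261 and 281 RPM in MC of B1, B2, B3, B5 and B6. It stood at 109, 91.4, 145, 94.5 and 126 RPM in their dlPFC, and at 192, 227, 227, 196 and 115 RPM in their PPC. It was the only miRNA of 362 (0.276%) whose 5 MC libraries all lay above all 10 association libraries. Inside B3 the MC and PPC values were close, with Wilson intervals of 242 to 295 and 205 to 250 RPM, which overlap. The difference was 0.99 (SE 0.12), or 1.98-fold, with an adjusted p of 0.0080. It was called in each of the other fits, except without B5 (adjusted p = 0.054) or without B6 (0.063).

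hsa-miR-133a-3p was more abundant, with 606, 380, 611, 496 and 547 RPM in MC of the same animals in the same order. Its dlPFC levels were 262, 187, 278, 195 and 369 RPM and its PPC levels 349, 432, 407, 469 and 323 RPM. As for hsa-miR-34a-5p, B2 had more in PPC than in MC, and in B5 the Wilson intervals of MC (467 to 527 RPM) and PPC (444 to 495 RPM) overlapped. The difference was 0.73 (SE 0.10), or 1.66-fold, with an adjusted p of 0.0139. The call was lost without B1 (0.070), B5 (0.088) or B6 (0.082), with 17 separate libraries (0.080) and in edgeR (0.055).

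Both remaining members of the muscle list behaved otherwise. hsa-miR-208b-3p, encoded in a myosin heavy chain gene, stood at 4.11 to 10.5 RPM in MC, 9.89 to 16.3 RPM in dlPFC and 4.30 to 11.5 RPM in PPC, and its difference was −0.40 (SE 0.15; adjusted p = 0.36). Without B2, the only animal in which it was higher in MC, the difference was −0.58 with a limma adjusted p of 0.038. Leaving out B1, B3, B5 or B6 instead gave adjusted p of 0.51 to 0.60. In limma it differed by −0.78 from dlPFC (adjusted p = 0.30) and by −0.03 from PPC (0.93). hsa-miR-499a-5p, encoded in another myosin gene, stood at 35.4 to 109.5 RPM in MC, 27.6 to 88.8 RPM in dlPFC and 52.8 to 109 RPM in PPC, with a difference of −0.01 (SE 0.11). Of the 4 muscle miRNAs, 2 passed the threshold, both higher, against the 1.10% of all miRNAs. These 2 come from shared primary transcripts and are not independent members.

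hsa-miR-10b-5p, which lies in the HOXD gene cluster and is known as higher in spinal cord than in forebrain, was at 481, 347, 624, 379 and 450 RPM in MC of B1, B2, B3, B5 and B6. The dlPFC libraries held 407, 129, 532, 526 and 278 RPM, and the PPC libraries 211, 217, 452, 116 and 309 RPM. The ranges of the areas overlapped, and B5 had more in dlPFC than in MC. The difference was 0.67 (SE 0.11), or 1.59-fold, with an adjusted p of 0.031, the weakest of the 4 calls. The call was lost in 8 of the 16 alternatives. The adjusted p was 0.96 without the animal block, 0.38 with 17 separate libraries and 0.16 when RPM was averaged before log2. It was 0.13, 0.15 and 0.16 without B1, B5 and B6, 0.23 in edgeR and 0.13 in DESeq2. Its paralog in the HOXB cluster, hsa-miR-10a-5p, was at 37.1 ± 6.74 RPM in MC (SD, n = 5), with a difference of 0.09 (SE 0.19; adjusted p = 0.87).

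**Figure D2:**
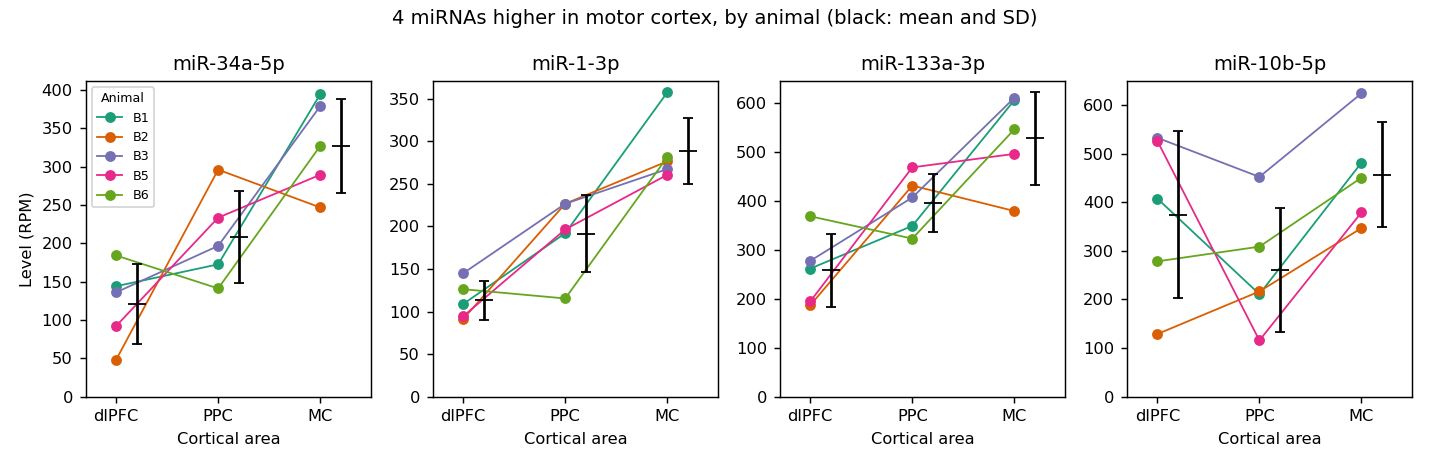
Levels in RPM of the 4 miRNAs in dlPFC, PPC and MC; each coloured line joins the libraries of 1 animal, and the black marks give the mean and SD of 5 animals. MC is the highest area in 5 of 5 animals for miR-1-3p and in 4 of 5 for the others; the lines of B2 (miR-34a-5p and miR-133a-3p) and B5 (miR-10b-5p) break the order.

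The association areas were then taken one at a time, in fits that share the MC libraries. In limma, MC exceeded dlPFC at an adjusted p under 0.05 for 3 miRNAs (0.829% of 362) and fell below it for 0. The same 3 were called in edgeR and DESeq2, and DESeq2 also called hsa-miR-551b-3p (−1.38, adjusted p = 0.036) and hsa-miR-767-5p (−0.65, adjusted p = 0.017) as lower in MC. For hsa-miR-34a-5p the difference from dlPFC was 1.54 (SE 0.20, adjusted p = 0.0063), for hsa-miR-1-3p 1.35 (SE 0.15, adjusted p = 0.0048) and for hsa-miR-133a-3p 1.05 (SE 0.14, adjusted p = 0.0063), each in 5 of 5 animals. These 3 limma calls were lost without B5 and held without any other animal. hsa-miR-10b-5p differed from dlPFC by 0.42 (SE 0.24, adjusted p = 0.59).

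Against PPC, limma called 0 of 362 miRNAs (0%), with 60 at an unadjusted p under 0.05, while edgeR called 4 and DESeq2 13. The differences from PPC were 0.68 (SE 0.22) for hsa-miR-34a-5p, 0.62 (SE 0.17) for hsa-miR-1-3p, 0.41 (SE 0.16) for hsa-miR-133a-3p and 0.91 (SE 0.19) for hsa-miR-10b-5p, at adjusted p of 0.23, 0.19, 0.26 and 0.13. hsa-miR-10b-5p was past the threshold in edgeR (0.017) and DESeq2 (7.8e-07), and was higher in MC than PPC in 5 of 5 animals. hsa-miR-1-3p (0.0092) and hsa-miR-34a-5p (0.013) were past the threshold in DESeq2 and not in edgeR, and hsa-miR-133a-3p in neither. So the first 3 miRNAs stood farther from dlPFC than from PPC, and hsa-miR-10b-5p farther from PPC.

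That contrast is the difference between dlPFC and PPC, which was tested on its own. limma called 0 of 362 miRNAs (0%), with 41 at an unadjusted p under 0.05, against 0 in edgeR and 5 in DESeq2. dlPFC minus PPC was −0.87 (SE 0.39, adjusted p = 0.48) for hsa-miR-34a-5p, −0.73 (SE 0.20, adjusted p = 0.18) for hsa-miR-1-3p, −0.65 (SE 0.22, adjusted p = 0.27) for hsa-miR-133a-3p and 0.49 (SE 0.38, adjusted p = 0.72) for hsa-miR-10b-5p. DESeq2 put hsa-miR-1-3p (0.0093) and hsa-miR-133a-3p (0.028) past the threshold. PPC exceeded dlPFC for the first 3 miRNAs in B1, B2, B3 and B5, and dlPFC exceeded PPC for all 3 in B6.

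Only 3 miRNAs (0.829% of 362) lay above both association areas in 5 of 5 animals, hsa-miR-1-3p and both arms of miR-126, the latter 2 without a call in limma. Below both areas in 5 of 5 lay 2 miRNAs (0.552%), hsa-miR-181d-5p and hsa-miR-331-5p, also without a call in limma.

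The levels across the other regions of Group B place MC among its neighbours. In the occipital cortex (OC), here primary visual cortex, hsa-miR-34a-5p was at 291 to 429 RPM (median 355), within the reach of MC at 247 to 394 (median 327). The entorhinal cortex (EC) held 46.6 to 87.4 RPM, the hippocampus (HC) 38.2 to 156 RPM, the cerebellum (CB) 50.4 to 122 RPM and PBMC 9.10 to 35.3 RPM, all below the lowest MC library. The order by median was OC, MC, PPC, dlPFC, EC, CB, HC and PBMC. Neighbours in this order overlapped, except PBMC with the brain regions.

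hsa-miR-133a-3p followed a like order with a wider step at the top. OC held 709 to 867 RPM, above every MC library (380 to 611), and OC exceeded MC in 4 of 4 animals with both. How many of all 362 miRNAs were higher in OC than in MC in 4 of 4 animals was not counted. EC (138 to 196 RPM), HC (95.9 to 254) and CB (28.0 to 62.3) lay below every MC library, and 4 of 6 PBMC libraries had 0 reads. For hsa-miR-1-3p, OC again exceeded MC in 4 of 4 animals, at 73.1 to 507 RPM over all 5 OC libraries (median 407). CB held 2.84 to 21.8 RPM and all 6 PBMC libraries had 0 reads, which allows up to 2.48 to 4.24 RPM. The low end of hsa-miR-1-3p came from B4, which was the lowest animal in 6 of 6 brain regions with a B4 library (36.3 RPM in dlPFC, 45.8 in PPC and 73.1 in OC), while its hsa-miR-133a-3p level was the lowest in 1 of 6.

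hsa-miR-10b-5p showed no such order: OC held 183 to 859 RPM (median 349), CB 171 to 511 RPM (median 299), HC 53.1 to 420 RPM and EC 97.2 to 290 RPM. MC had the highest median (450 RPM), and its range overlapped those of dlPFC, PPC, OC, HC and CB. MC lay above both EC and HC in 5 of 5 animals for each of the 4 miRNAs. The 4 were picked for being high in these same MC libraries, and the share over all miRNAs was not counted.

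**Figure D3:**
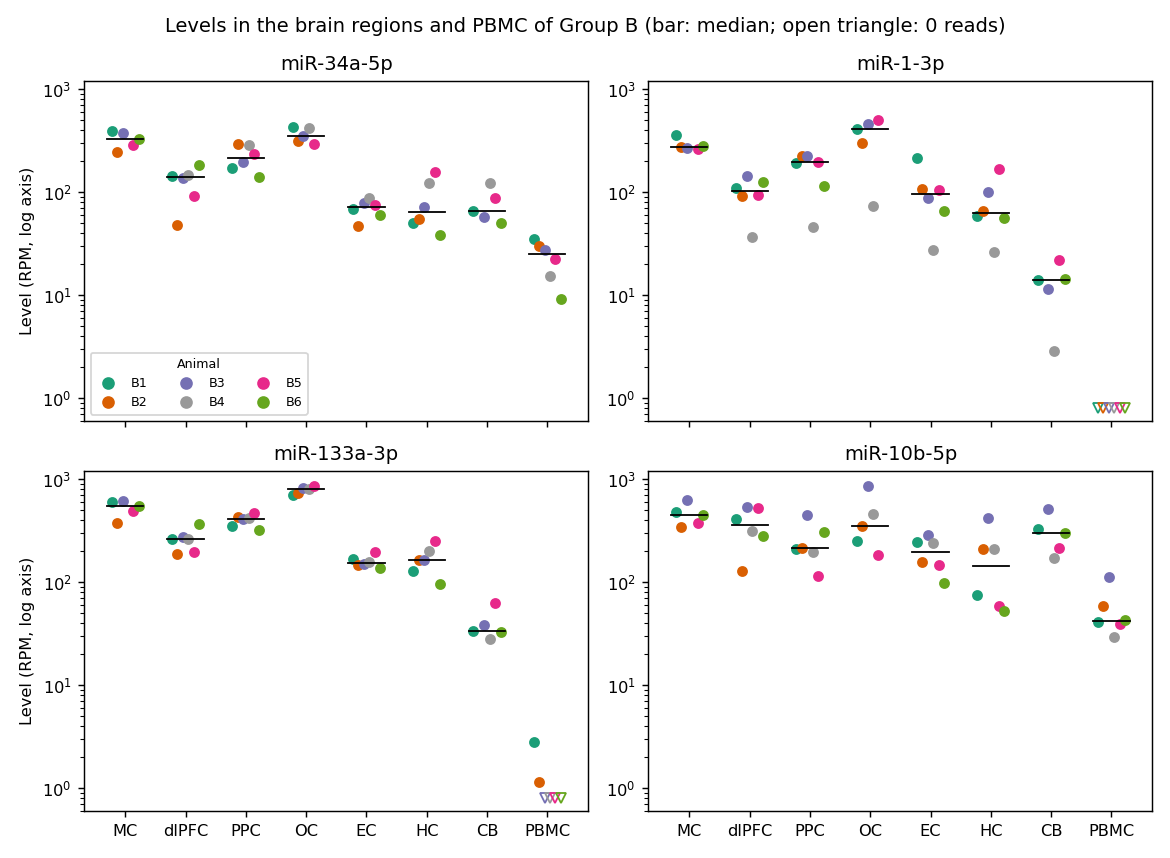
Levels in RPM (log axis) of the 4 miRNAs in the 7 brain regions and PBMC of Group B; each point is 1 library, coloured by animal, bars are medians and open triangles mark 0 reads. MC and OC are the highest regions for miR-34a-5p, miR-1-3p and miR-133a-3p, and the grey points of B4 lie lowest for miR-1-3p.

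In the lower direction no miRNA passed in limma, and the 5 with the smallest p that were lower in 5 of 5 animals are given as values. hsa-miR-497-5p, of the miR-15/16 family, stood at 192, 185, 211, 221 and 236 RPM in MC of B1, B2, B3, B5 and B6, at 203 to 304 RPM in dlPFC and at 198 to 331 RPM in PPC. Its difference was −0.33 (SE 0.09, adjusted p = 0.23). hsa-miR-181d-5p, of the family of the most abundant miRNA in MC, hsa-miR-181a-5p, stood at 297, 265, 301, 270 and 231 RPM in MC, at 236 to 388 RPM in dlPFC and at 297 to 387 RPM in PPC, a difference of −0.27 (SE 0.07, adjusted p = 0.24; 0.0059 in DESeq2). Both had more in OC than in MC in 4 of 4 animals, a count again without the share over all miRNAs.

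The other 3 were scarce. hsa-miR-452-5p had 28 to 108 reads a library and a difference of −0.48 (SE 0.13, adjusted p = 0.24), hsa-miR-1298-5p 11 to 62 reads and −0.62 (SE 0.15, adjusted p = 0.23), and hsa-miR-1179 2 to 21 reads and −0.58 (SE 0.14, adjusted p = 0.23). OC lay below MC for each of these 3 in 4 of 4 animals, also without the share over all miRNAs. In the higher direction the next miRNA after the 4 called was hsa-miR-433-5p, with 9 to 37 reads a library and a difference of 0.44 (SE 0.11, adjusted p = 0.23).

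Lists of miRNAs that mark cell types gave the background to these values. The 24 neuron miRNAs had a summed level of 46609 to 67730 RPM in MC, 48236 to 66258 in dlPFC and 52713 to 66809 in PPC. All 24 were detected in all 15 libraries, which the authors' filter of 10 reads in 80% of brain samples made likely beforehand. These miRNAs mark brain tissue and do not tell one cortical area from another, so the MC label itself had no check of this kind. Of the 24, 0 were called in limma, 7 were above 0 and 17 below, where all 362 miRNAs had 177 above and 185 below, and their median was −0.12 against −0.01 over all 362. At an unadjusted p under 0.05, 0 were higher and 3 lower, hsa-miR-132-3p, hsa-miR-153-5p and hsa-miR-488-3p, against 5.52% of all miRNAs lower. Several arms and copies of the same miRNA are among the 24, so the members are not independent. The most abundant, hsa-miR-9-5p, was at 28891 ± 4316 RPM in MC and 27622 ± 4284 RPM in dlPFC (SD, n = 5), and hsa-miR-128-3p and hsa-miR-124-3p had differences of −0.15 (SE 0.10) and −0.16 (SE 0.11).

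Of the 5 vascular miRNAs, 0 were called in limma. All 5 were above 0, with a median of 0.30, and 4 of 5 were higher at an unadjusted p under 0.05, against 6.35% of all miRNAs. Both arms of miR-126 and both arms of miR-145 are among the 5, so the members are not independent. hsa-miR-126-3p, made in endothelial cells from the EGFL7 gene, was at 2404, 1931, 1733, 2121 and 1953 RPM in MC of B1, B2, B3, B5 and B6, with a difference of 0.31 (SE 0.09). limma gave it an adjusted p of 0.27, edgeR 0.022 and DESeq2 6.3e-05. hsa-miR-126-5p, from the other arm, differed by 0.30 (SE 0.09), with adjusted p of 0.32, 0.040 and 0.0025 from the same tools. hsa-miR-143-3p, a smooth muscle miRNA, was at 23790 RPM in MC, 21855 in dlPFC and 16806 in PPC on average, a difference of 0.32 (SE 0.11, adjusted p = 0.36). It differed by 0.15 from dlPFC (limma adjusted p = 0.82, higher in 3 of 5 animals) and by 0.49 from PPC (0.13, 5 of 5). Against PPC it was past the threshold in edgeR (0.0096) and DESeq2 (0.00017). The summed vascular level was 27477 to 39655 RPM in MC, 20576 to 41602 in dlPFC and 21165 to 29823 in PPC. PBMC of the same animals held 13906 to 56176 RPM, so the list is not particular to vessels in these libraries. The sum in MC lay above both association areas in 3 of 5 animals and above their mean in 5 of 5. The part of vessels in the difference of hsa-miR-1-3p, hsa-miR-133a-3p and hsa-miR-10b-5p was not tested.

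All 4 oligodendrocyte miRNAs were above 0, with a median of 0.14 and 0 called, and their summed level was 6901 to 12893 RPM in MC, 5309 to 12266 in dlPFC and 8144 to 10414 in PPC. hsa-miR-338-3p, the most abundant, differed by 0.15 (SE 0.13) and hsa-miR-219a-2-3p by 0.29 (SE 0.17). The erythroid list had 3 of 4 members above 0 and a median of 0.07, with 1153 to 2472 RPM in MC, 834 to 2598 in dlPFC and 990 to 2646 in PPC. The leukocyte and microglia list had 4 of 6 above 0 and a median of 0.10, with 762 to 960 RPM in MC, where PBMC of the same animals held 108029 RPM or more. The choroid plexus and ependyma list had 1 of 5 above 0 and a median of −0.21, hsa-miR-1298-5p differing by −0.62 (SE 0.15), hsa-miR-1298-3p by −0.33 (SE 0.15) and hsa-miR-204-5p by −0.21 (SE 0.10). All 3 neuroendocrine miRNAs were below 0, with a median of −0.08. None of these lists had a member past the threshold in limma, edgeR or DESeq2 in MC against association cortex. DESeq2 gave hsa-miR-1298-5p no adjusted p there, so it could not be called by that tool. Against PPC alone, DESeq2 called hsa-miR-204-5p as lower in MC (−0.36, adjusted p = 0.046).

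Among the families and clusters, the 54 miRNAs of the 14q32 imprinted cluster had 40 above 0, against 177 of all 362, and a median of 0.07. Of these, 0 were called in limma and 5 were higher at an unadjusted p under 0.05, against 6.35% of all miRNAs, led in abundance by hsa-miR-127-3p, which was at 17627 ± 2680 RPM in MC, 14437 ± 3153 in dlPFC and 14578 ± 2056 in PPC (SD, n = 5). Its difference was 0.29 (SE 0.12, adjusted p = 0.36), higher in 5 of 5 animals. Both arms of several miRNAs are among the 54, so the members of this cluster are not independent. The miR-17 family clusters (8 of 13 above 0), the miR-30 family (4 of 5) and the miR-99, miR-100 and miR-125 list (3 of 5) had medians of 0.04, 0.07 and 0.03, the last at −0.03 under quantile normalization, and the let-7 family (4 of 9) and the miR-29 family (1 of 3) had medians of −0.02 and −0.06. All 4 members of the miR-181 family and all 3 of the list of miR-221 and miR-222 arms were below 0, with medians of −0.14 and −0.23, hsa-miR-222-3p at 1419 RPM in MC, 1949 in dlPFC and 1522 in PPC on average (adjusted p = 0.36). In MC against association cortex, none of these families had a member past the threshold in limma or edgeR, and DESeq2 called hsa-miR-181d-5p. Against PPC alone, DESeq2 called hsa-miR-181c-5p (adjusted p = 0.037) and hsa-miR-181d-5p (0.046) as lower in MC.

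**Figure D4:**
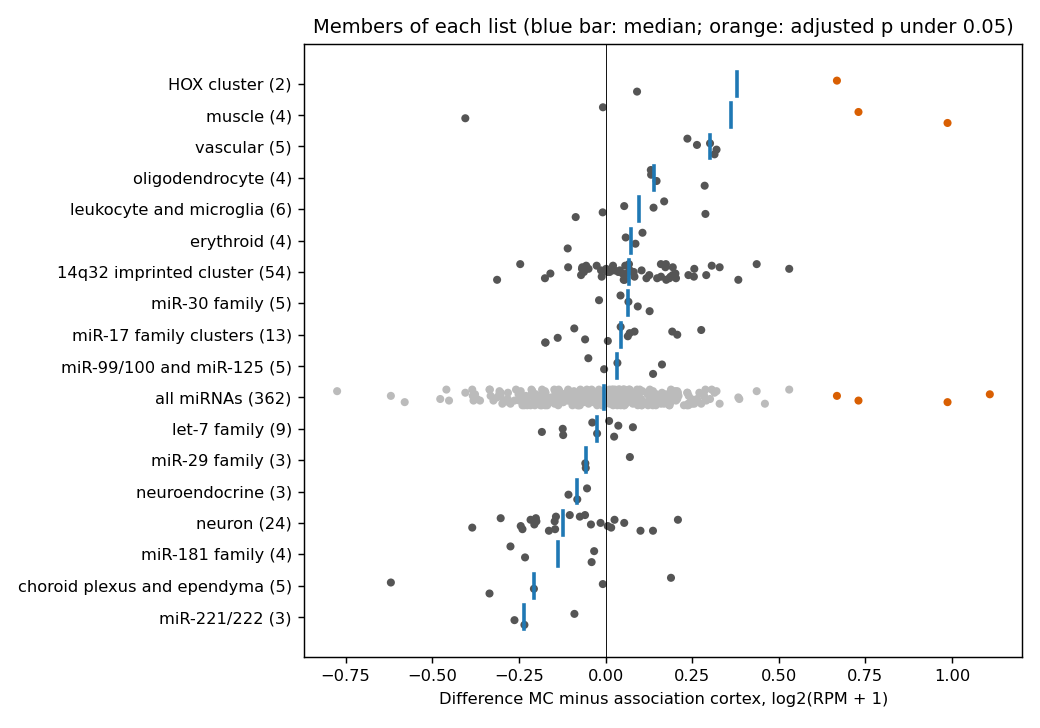
Difference MC minus association cortex in log2(RPM + 1) for the members of each list (number of members in brackets); points are miRNAs, blue bars medians, and orange points have an adjusted p under 0.05 in limma. Of the 4 limma calls, 2 lie in the muscle list (of 4 members) and 1 in the HOX cluster list (of 2), and miR-34a-5p belongs to no list.

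None of the 5 most abundant miRNAs of MC passed the threshold in limma, edgeR or DESeq2. hsa-miR-181a-5p led at 81746 ± 16165 RPM in MC and 83264 ± 15467 RPM in dlPFC (SD, n = 5), followed by hsa-miR-26a-5p, hsa-miR-27b-3p, hsa-miR-22-3p and hsa-miR-9-5p. Their differences lay between −0.13 and 0.13, with adjusted p of 0.53 to 0.92. hsa-miR-26a-5p was lower in MC in 5 of 5 animals by this scale (−0.13, SE 0.08), and under quantile normalization its difference was 0.02.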

How the data were processed

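The authors prepared small RNA libraries with the Illumina Truseq kit, clipped adapters and used the bowtie aligner of mirDeep2 (its version is not given in the sources used here) against human miRBase v21, allowing 0 mismatches, so baboon miRNAs that differ from human were not counted. The authors dropped libraries under 500000 mapped reads, required 10 reads or more of a miRNA in 80% of the brain samples, and deposited RPM values, scaled to the mapped reads of each library with its runs combined. The deposited table also holds a total read count per miRNA over all libraries.

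Library totals were recovered as the number that makes RPM values up to 200.0 whole. In each of the 76 libraries 100% came out whole within 0.1 reads, and the reads of a miRNA summed to 0.999957 to 1.000000 times the deposited count. The 362 miRNAs hold 63.6% to 65.8% of the totals in the 15 libraries. What the totals count besides these miRNAs was not tested. Intervals and floors cover counting error only.

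MC was compared within animals by limma 3.58.1 (R 4.3.3) on log2(RPM + 1), which understates changes of low miRNAs, with Benjamini-Hochberg adjustment over 362 miRNAs at 0.05. Where limits of detection are given, a count of 0 was read as up to 3. The labels name the animal of each library, and the deviations of an animal's MC and association values correlated at r = 0.389 to 0.787 over 227 miRNAs above 50 RPM. Replicates are animals. edgeR 4.0.16 and DESeq2 1.42.0 ran on the recovered reads as alternatives, taking the 15 libraries as values with the animal as a block, beside other pseudocounts (0.1 and 10 RPM), a filter of 10 RPM, other scalings, and each animal left out. DESeq2 gave no adjusted p to 126 of 362 miRNAs in MC against association cortex and to 132 in MC against PPC. Those miRNAs could not be called by it. The tests were tried on simulated data in which dlPFC and PPC of an animal had the same mean. That trial does not cover miRNAs whose association areas differ, such as hsa-miR-34a-5p.

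Named miRNAs were those called and the same way in 5 of 5 animals, the 5 in a direction with the smallest p where fewer passed, up to 3 of each list and 5 overall by level in MC. Others, such as hsa-miR-208b-3p, hsa-miR-331-5p, hsa-miR-132-3p, hsa-miR-153-5p and hsa-miR-488-3p, were chosen after their values were seen. Members and lists were chosen with earlier results of these data known. No sequence or coordinate was used.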

Additional observations from a re-analysis of the deposited data

Results flagged for a closer look

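Of 111 groups of values checked, 3 held a library far from the rest of its group by Dixon's ratio of gap to range, and chance alone marks about 1 group in 20. hsa-miR-1-3p in MC was 357 RPM in B1 against 261 to 281 RPM in the other 4 animals, and without B1 its difference from association cortex was 0.91 on the log2 scale (limma adjusted p = 0.040). hsa-miR-10b-5p in PBMC was 112 RPM in B3 against 29.6 to 59.3 RPM in the other 5 animals. The summed oligodendrocyte list in PPC was 10414 RPM in its highest animal, with a median of 8635 RPM.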

How the results depend on the processing

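The number of miRNAs past the threshold in MC against association cortex was 4, and 3 to 6 under the other scalings, pseudocounts, filter, count tools and moderated fits (3 in edgeR, hsa-miR-1-3p and both arms of miR-126), but 1 (hsa-miR-1-3p) with 17 libraries as separate values. Leaving out each animal gave 1 to 5, the 1 being hsa-miR-34a-5p without B5 or without B6. For MC against dlPFC the count was 3, with 4 under quantile normalization (hsa-miR-551b-3p added, lower) and 5 in DESeq2 (2 of them lower). When each animal was left out, the count was 0 (without B5) to 7 (without B2, 4 of them lower). For MC against PPC it was 0, with 4 in edgeR, 13 in DESeq2, 3 with trend and robust moderation, and 0 to 1 with an animal left out. For dlPFC against PPC it was 0, with 5 in DESeq2 and 0 to 2 with an animal left out. Without the replicate block that pairs the libraries of an animal, the counts were 3, 3, 0 and 0, and hsa-miR-10b-5p was the call lost. The 4 miRNAs called, hsa-miR-433-5p and the 5 lower miRNAs given as values (10 in all) kept their direction under the alternatives that gave a value. Of the 50 miRNAs named as list members or for their level, none called in limma, 25 changed sign under at least 1 alternative, each at 0.13 or less in size on the log2 scale in the reported fit. The cause of these changes was not tested. miRNAs under about 2 RPM lie at the limit of what a count of 0 allows in these libraries.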
